A study of Mus musculus with 36 samples.

Results

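Transcript levels in the MSR-dCas9-Activator line were compared between 12 h and 3 h after doxycycline was removed, in 3 libraries at 12 h and 3 at 3 h, which are 6 of the 36 libraries of the series. All 54842 gene rows and 1561 repeat family rows of the count table were considered, of which 28621 genes and 1492 repeat families had enough counts to be tested. The cells were mouse embryonic fibroblasts (MEF) that carry, inserted with the PiggyBac transposon and selected with hygromycin as a mixed culture, a doxycycline-inducible dCas9 and a guide RNA against the major satellite repeat (MSR). In the MSR-dCas9-Activator line dCas9 is fused to VPR, a strong transcriptional activator, and in the MSR-dCas9-Control line it carries no effector. The Activator line received 10 ng/ml doxycycline for 6 h and the Control line 10 ng/ml for 24 h, after which doxycycline was washed out and cells grew in fresh medium. Libraries were taken uninduced, induced, and 3, 6, 12 and 24 h after removal, with 3 biological replicates in each of 12 groups. Effector, duration of doxycycline treatment and the separately transfected cultures all separate the lines, and their parts cannot be told apart where the lines are compared. The lines already differed uninduced. Mean normalised counts, defined below, were then 3427 for the MSR in the Activator line and 1464 in the Control line, and 618.6 and 0 for the gene Creg2. The question was which genes moved between the early and the late time point, and whether they had already moved during induction.

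Major satellite repeats (GSAT_MM in the table) form the pericentric heterochromatin of mouse chromosomes, the dense foci seen next to centromeres, and are normally packed with H3K9me3 and HP1 proteins and barely transcribed. Minor satellite repeats (SYNREP_MM) lie at the centromere itself. Transcripts with short half-lives, such as immediate early genes and the negative arm of the circadian clock, follow the rate of transcription within hours, whereas stable transcripts, such as those for matrix and cytoskeletal proteins, respond slowly. Total RNA was sequenced after ribosomal RNA depletion, and values below are normalised counts, the deposited counts scaled by library size and TMM factors taken from genes. A gene was called when its adjusted p in edgeR's quasi-likelihood test was under 0.05, its log2 fold change was beyond 1 and its mean normalised count over the 36 libraries was above 100, and a repeat family when its adjusted p was under 0.05 and its log2 fold change beyond 0.5. Unless stated otherwise, log2 fold changes are 12 h against 3 h and are given ± SE, and adjusted p-values come from this edgeR fit over 30113 rows. Without an added standard, levels are relative to the other transcripts of a library, so that fewer cells of a type and less RNA per cell cannot be told apart.

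The 6 libraries held between 49457642 and 66804999 counts. Repeat families took 22.1%, 22.1% and 17.6% of the counts in the 3 libraries at 3 h and 26.5%, 28.3% and 30.6% at 12 h. Activator 12 h replicate 3 stood apart, with 7.52% of its counts in ribosomal RNA, against 0.0568% to 0.145% in the other 5 libraries. Its repeat share without ribosomal RNA was 27.3%. All 14 fibroblast markers were detected in both groups, with summed normalised counts of 1113885 to 1366740 at 3 h and 704003 to 851093 at 12 h. The 26 markers of other cell types summed to 2508 to 2910 at 3 h and 3154 to 3398 at 12 h. Of these, 2 (Hbb-bs and Krt5) had no counts at 3 h and 1 (Hbb-bs) had none at 12 h. The other red blood cell marker of the list, Hba-a1, had counts in both groups. The part of these shifts in the results below was not tested.

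Promoter sequence is shown for 4 genes from groups that are described below, to make visible the elements those groups are known for. The sequences are from RefSeq on GRCm38.p6 and run 5′ to 3′ on the strand of the gene, from up to 250 bases before its RefSeq start. They end where an exon of the gene in the GENCODE annotation begins, if that lies further upstream. For Per1 the GENCODE gene, chr11:69095217-69109960, begins before the printed stretch, which lies within it. Capitals mark the element. Bhlhe41 and Per1 carry an E-box (CACGTG), the site bound by the clock activators CLOCK and BMAL1, which begins 15 and 165 bases before the end of the printed stretch. Ccnf, a cyclin of the G2 phase, carries the cell cycle element CHR (TTTGAA), beginning 55 bases before the end of the printed stretch. Ifit1, an interferon-induced gene, carries the core of the interferon-stimulated response element on the opposite strand, in matches that begin 86 and 67 bases before the end of the printed stretch.
Bhlhe41, chr6:145865559-145865670, minus strand: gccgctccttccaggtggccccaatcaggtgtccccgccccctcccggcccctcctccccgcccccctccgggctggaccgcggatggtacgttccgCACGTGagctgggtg
Per1, chr11:69098699-69098947, plus strand: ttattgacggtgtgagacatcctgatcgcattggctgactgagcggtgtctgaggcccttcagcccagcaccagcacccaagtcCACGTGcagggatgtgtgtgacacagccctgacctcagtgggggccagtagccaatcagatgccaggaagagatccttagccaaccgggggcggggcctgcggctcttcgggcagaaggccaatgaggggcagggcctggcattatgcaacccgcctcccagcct
Ccnf, chr17:24251485-24251659, minus strand: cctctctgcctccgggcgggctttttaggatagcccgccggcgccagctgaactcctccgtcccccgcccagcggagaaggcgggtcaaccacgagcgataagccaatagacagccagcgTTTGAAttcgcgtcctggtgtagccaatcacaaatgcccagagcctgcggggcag
Ifit1, chr19:34640639-34640870, plus strand: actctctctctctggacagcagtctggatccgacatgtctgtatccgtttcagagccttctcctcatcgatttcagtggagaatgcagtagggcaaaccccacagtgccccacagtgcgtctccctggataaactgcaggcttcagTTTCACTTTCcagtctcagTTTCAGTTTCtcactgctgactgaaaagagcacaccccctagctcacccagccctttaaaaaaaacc
In the windows before the start, searched on both strands, the E-box was found in 5 of 13 circadian clock genes with a promoter in the table (38.5%) and in 1634 of all 27025 promoters (6.05%). CHR was found in 15 of 41 mitotic genes (36.6%, against 16.3% of all promoters). CCAAT, which binds NF-Y, was found in 31 of these 41 (75.6%, against 34.5%). It was not particular to mitotic genes, with 10 of 13 clock genes (76.9%) and 27 of 42 DNA replication genes (64.3%). Of 14 interferon-stimulated genes 3 had it (21.4%). The response element core was found in 4 of 14 interferon-stimulated genes (28.6%, against 3.04%). These are matches of letters and not measured binding.

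Between 3 h and 12 h, 546 genes were called higher and 244 lower in the Activator line, which is 1.91% and 0.853% of the genes tested, or 4.01% and 1.79% of the 13628 genes with a mean above 100. Under the naming rule, the largest rises were those of Snora17, a small nucleolar RNA, P2rx7, an ATP-gated ion channel, and the lincRNA AC154187.1, and Bhlhe41, Bcl6 and Myc, transcription factors, were also called higher. Creg2 had the largest fall, and linker histone genes, genes of cholesterol synthesis and Hmgb3, a chromatin protein, were also called lower. In the Control line over the same hours, 10 genes were called (0.0349%), all of them lower. The difference between the lines itself was called for 429 genes in the direction of a larger rise in the Activator line (1.5%) and for 232 in the direction of a larger fall (0.811%). With a log2 limit of 0.5 the larger direction turned, to 1542 higher and 1900 lower in the Activator line and to 904 and 1421 for the difference, which the adjusted p alone gave as 1435 and 1993. The split of the Activator calls moved with the scaling: it was 667 higher and 175 lower with DESeq2 size factors, 675 and 157 by library size alone, 618 and 150 with scaling to mitochondrial mRNAs, and 657 and 174 with DESeq2. The count without Activator 12 h replicate 3 was 823 genes, of which 681 were among the 790. Higher calls were 884 without Activator 3 h replicate 2 and 875 without 12 h replicate 1, and lower calls were 159 without 12 h replicate 3. The Control count was 3 to 6 without any 1 of Control 3 h replicates 1 and 3 and the 12 h libraries, and the 232 larger falls were 146 without Control 12 h replicate 3.

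**Figure D1:**
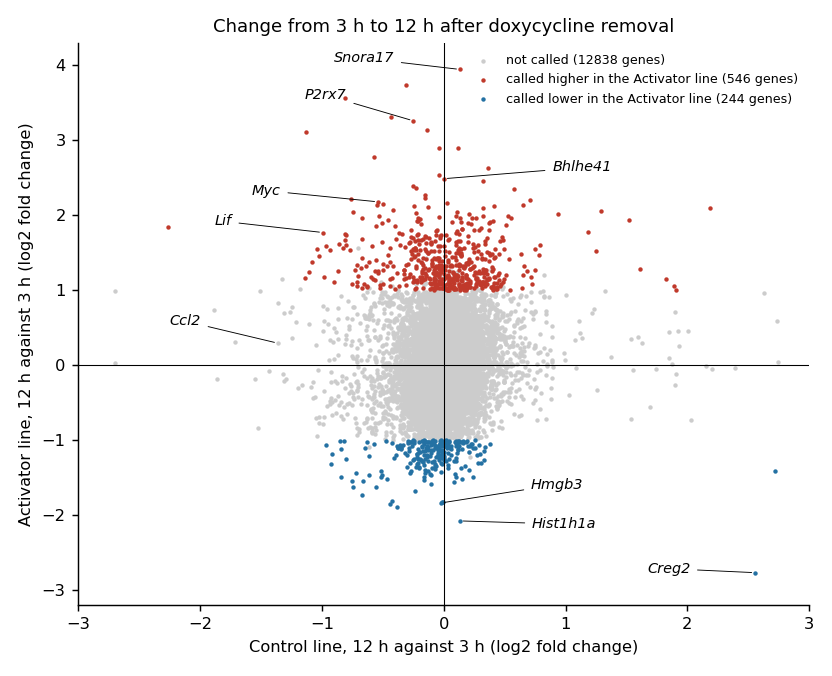
Log2 fold change from 3 h to 12 h in the Control line (x axis) and the Activator line (y axis) for the 13628 genes with a mean normalised count above 100; 10 genes lie outside the axes. The 546 genes called higher (red) and 244 called lower (blue) in the Activator line have medians of 0.02 and -0.07 on the x axis. Some of them lie well off 0 there, such as Osgin1 (-1.11) and Lif (-0.99). Ccl2 lies to the left, lower in the Control line.

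The change was gradual. For 537 of the 546 genes called higher (98.4%) and 242 of the 244 called lower, the mean at 6 h lay between those at 3 h and 12 h, against 72.3% of all genes with a mean above 100. These 2 sets were chosen on their 3 h and 12 h libraries, so this is a description. The shorter steps alone passed the limits for fewer genes, with 22 called higher and 1 lower from 3 h to 6 h, and 81 and 23 from 6 h to 12 h. In 453 of the 546 and 235 of the 244, all 3 libraries at 12 h lay on 1 side of all 3 at 3 h.

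P2rx7 (chr5:122643911-122691432 on GRCm38, as all gene positions here) had the smallest p for the difference between the lines among the genes with the largest rises. It stood at 1204, 1215 and 1023 normalised counts at 3 h and 8255, 14431 and 10449 at 12 h. The groups lay far apart, and in the Control line the gene was at 209.1 to 276 at 3 h and 187.4 to 234.8 at 12 h. The log2 fold change was 3.26 ± 0.18 (adjusted p = 1.3e-12), and the difference between the lines 3.51 ± 0.26 (adjusted p = 1.53e-09). P2rx7 was also higher at 24 h, with 13385 to 21006. Snora17, a small nucleolar RNA, had the largest rise under the naming rule, from 229.2, 144.4 and 149.4 to 3735, 1636 and 2810 (3.94 ± 0.38, adjusted p = 6.66e-08), and in the Control line stayed between 277.1 and 360.4 over both times. AC154187.1, a lincRNA at chr17:70967886-70971805, rose by 3.13 ± 0.29 from 155.9, 74.9 and 154.9 to 1425, 723 and 1195, while its Control libraries held at most 11 at either time. On induction AC154187.1 had already been called higher (1.40), and P2rx7 (0.74) and Snora17 (-0.74) had stayed within the fold limit.

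Plcxd2, which encodes a phospholipase C-like protein, went from 366, 434 and 364.1 to 1565, 3138 and 2086 (2.53 ± 0.20), together with Gm15638, annotated on the opposite strand of the same locus (2.89 ± 0.26). Libraries were stranded but the strand setting of the counting is not given in the sources used here, so reads of such overlapping pairs cannot be told apart, which holds also for Nr1d1 with Thra and Kctd19 with Plekhg4. Bcl6, a transcriptional repressor, rose by 2.39 ± 0.22 from 97.5, 116.8 and 90.8 to 401.3, 619.3 and 580.3. Sphk1, which makes sphingosine-1-phosphate, rose by 2.36 ± 0.23, Arrdc3, an arrestin family protein, by 2.27 ± 0.25, and Srrm4, a splicing factor of neurons, by 2.23 ± 0.20. Plcxd2 (-1.11), Bcl6 (-2.20) and Sphk1 (-1.45) had been called lower on induction, and Arrdc3 (-0.60) and Srrm4 (-0.52) were not called then. At 12 h against uninduced these 5 genes had 1.38, 0.26, 0.53, 1.60 and 1.22. Kctd19, a gene known from meiosis, rose from 199.2, 123.9 and 173.8 to 618.8, 763.5 and 822.5 and was below 10 in every Control library of these times. It had already risen on induction (2.47).

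Of the genes called lower, Creg2, a secreted glycoprotein gene, fell the most: 181.7, 246.9 and 216.9 counts at 3 h and 33.7, 41.6 and 18.9 at 12 h (-2.77 ± 0.33, adjusted p = 3.21e-06). No Control value is compared, since Creg2 had at most 2 normalised counts there. Hmgb3 went from 1155, 1112 and 1205 to 313.5, 369.7 and 282.9 (-1.84 ± 0.12, adjusted p = 9.61e-12), against -0.03 in the Control line, and the difference between the lines was -1.82. S100a4, a calcium-binding protein of fibroblasts, went from 3758, 2225 and 3254 to 1215, 572 and 815 (-1.83 ± 0.22). Mt2, a metallothionein, changed by -1.74 ± 0.14 in the Activator line and by -0.67 in the Control line. Ttyh3, a chloride channel protein gene, changed by -1.58 ± 0.30.

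The early response and the later change ran in opposite directions for many genes. Induced against uninduced, 1717 genes were called lower (6% of those tested) and 689 higher (2.41%), in libraries that are not part of the 12 h against 3 h comparison. Of the 1717 genes lower on induction, 274 (16.0%) were called higher between 3 h and 12 h and 12 (0.699%) were called lower. Of the 689 genes higher on induction, 72 (10.4%) were called higher again and 7 (1.02%) lower. Among the 11222 genes with a mean above 100 called in neither direction on induction, 200 (1.78%) were called higher and 225 (2.00%) lower. The median log2 fold change from 3 h to 12 h was 0.47 for the genes lower on induction, 0.24 for those higher and -0.16 for the rest, and in the Control line it was 0.00, 0.19 and -0.02. Seen from the late side, 274 of the 546 genes called higher (50.2%) had been lower on induction, while 177 of the 244 called lower (72.5%) had been within 0.5 of 0 on induction. The count of 274 moved with single libraries: it was 463 without Activator 3 h replicate 2, 464 without 12 h replicate 1 and 173 without 12 h replicate 2. Without Activator 3 h replicate 2 the 72 were 120 and the 7 were 3.

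**Figure D2:**
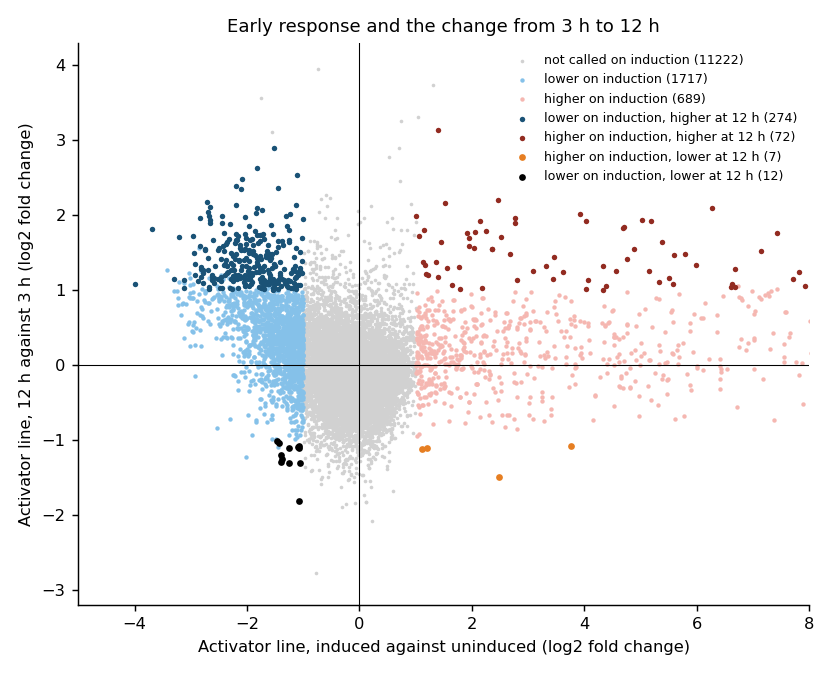
Log2 fold change on induction (x axis) and from 3 h to 12 h (y axis) in the Activator line for the 13628 genes with a mean above 100; 35 lie outside the axes. The 274 genes lower on induction and higher at 12 h (dark blue) fill the upper left, the 72 genes higher in both comparisons (dark red) the upper right, and 7 genes (orange) were higher on induction and lower at 12 h.

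The 274 genes had a median log2 fold change of -1.89 on induction, 0.68 from 3 h to 6 h, 0.68 from 6 h to 12 h and 0.91 from 12 h to 24 h, comparisons that share libraries. Their median in the Control line was -0.04. At 12 h, 238 of the 274 were still below their uninduced mean, with a median of -1.05. Myc, a growth-promoting transcription factor (chr15:61985391-61990374), shows the course: 5651 to 8598 uninduced, 635.8 to 1535 induced, then 571, 965 and 669.6 at 3 h, followed by 2439.6, 4364 and 3184. The groups did not overlap, the log2 fold change was 2.18 ± 0.24 (adjusted p = 3.32e-07), and 24 h libraries held 5816 to 6502. In the Control line Myc was at 11879 to 13897 at 3 h and 8191 to 9383 at 12 h, so that the difference between the lines, 2.72 ± 0.33 (adjusted p = 8.75e-06), holds a part from the Control value of -0.54. Plk2, a kinase that p53 activates, went from 1171, 1566 and 1076 to 3647, 6273 and 4700 (1.93 ± 0.23), and the Control line had 18970 to 22590 at 3 h and 14289 to 15211 at 12 h. Protein-coding genes made up 60.2% of the 274, against 83.3% of all genes with a mean above 100, and the median gene length of the protein-coding ones was 12093 bases, against 24946.

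Genes higher on induction that turned were few. Klhl32, a kelch family gene, went from 110.4 to 174.1 uninduced to 403.9 to 1150 induced, and from 780.3, 702.3 and 520.2 at 3 h to 285.9, 191.3 and 240.8 at 12 h (-1.49 ± 0.25, adjusted p = 4.08e-05). In the Control line it had 0.24. Gm45518, a lincRNA, had 1.77 to 2.96 uninduced, 510.1 to 901 induced, 356, 871.7 and 411.7 at 3 h, and 173.6, 200.6 and 191.5 by 12 h (-1.49 ± 0.35, adjusted p = 0.0019). Ikzf1, a transcription factor of lymphoid cells, was at 0 in the uninduced libraries, at 209.1 to 932.1 induced, at 724.4, 625.7 and 541.2 at 3 h and at 279.8, 175.6 and 298.8 at 12 h (-1.41 ± 0.44, adjusted p = 0.0202). The groups did not overlap in any of these 3 genes. Gm45518 was at -0.97 without Activator 3 h replicate 2, and Ikzf1 missed the adjusted p without any 1 of the libraries Activator 3 h replicate 2 (-0.90) and 12 h replicates 1 (-1.23), 2 (-1.43) and 3 (-1.39), with DESeq2 (-1.30), with scaling to mitochondrial mRNAs (-1.33) and without the replicate block (-1.33). The 72 genes that were called higher on induction and again between 3 h and 12 h had a median of 3.54 on induction and of -0.46 from 12 h to 24 h. Of those on assembled chromosomes, 13 (18.3%) lay in the first 10 Mb, the end of the mouse chromosome that carries the pericentric repeats, against 5.89% of all genes with a mean above 100, 9.94% of all genes called higher and 12.6% of the 200 called higher that were called in neither direction on induction.

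Most circadian clock genes were higher at 12 h. Of 18 tested, 11 were called higher and 0 lower, where 1.91% of all genes tested and 4.01% of those with a mean above 100 were called higher, with a median log2 fold change of 1.27, against a median of 0.10 over all genes tested, and the Control median was 0.07. The difference between the lines was called for 8 of them, all higher, beside 1.5% of all genes tested. On induction 9 of the 18 had been called lower, beside 6% of all genes tested and 12.6% of those with a mean above 100. Repressors of the clock led. Bhlhe41 (chr6:145858243-145865558), which carries the E-box shown above and blocks CLOCK and BMAL1, went from 48.3, 123.9 and 76.4 to 251.2, 719.2 and 441 (2.49 ± 0.42, adjusted p = 6.78e-05), and Control values of 259.5 to 349.8 at both times did not separate. Nr1d1, the nuclear receptor that represses Arntl, went from 149.2, 213.9 and 212.5 to 607.6, 1053 and 793.5 (2.10 ± 0.22). The period genes Per1 and Per2, chosen after their values were seen, are the classic negative limb. Per1 went from 205.1, 322.6 and 199.2 to 598.4, 1214 and 726.8 (1.79 ± 0.29), and Per2 from 70.9, 114.1 and 80.8 to 272.7, 553.7 and 275.6 (2.04 ± 0.22). Uninduced Per1 libraries held 1219 to 1264, so that all 12 h values were below that level. The activators of the clock had 0.15 (Arntl) and 0.03 (Clock), and Cry1 had -0.14, none past the test. Nfil3 (1.55), Bhlhe40 (1.61), Nr1d2 (1.32) and Tef (1.26) were among the others called.

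Immediate early genes are the transcripts that respond first to growth factors and stress. Of 33, 14 were called higher and 0 lower, beside 4.01% and 1.79% of all genes with a mean above 100, 23 passed the adjusted p alone in the upward direction and 1 in the downward, and the median was 0.98, against -0.38 in the Control line. For 19 the difference between the lines was called, all higher, beside 1.5% of all genes tested. In the Control line 3 of the 33 were lower past the adjusted p and 0 higher, so the difference holds a part from that line. Klf4 and Klf6, zinc finger factors, rose by 2.11 ± 0.31 and 2.03 ± 0.23, Dusp1, a MAP kinase phosphatase, by 1.73 ± 0.20, and Atf3, a stress factor, by 2.12 ± 0.23 from 426, 357.4 and 451.6 to 1257, 2212 and 1957. Fosl1, an AP-1 subunit chosen after its values were seen, rose from 486.1, 396.6 and 408.4 to 1468, 1820 and 2096 in the Activator line, and in the Control line had 2667 to 4379 at 3 h and 1572 to 2574 at 12 h. Egr1 was the 1 member past the adjusted p downward, with -0.79 in the Activator line and -0.99 in the Control line.

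Stress and death genes split. Of 31 p53 target genes 6 were called higher and 0 lower, with a median of 0.11, beside the same 4.01% and the 1.79% called lower over genes with a mean above 100. Gadd45a, a growth arrest gene, went from 112.5, 156.9 and 115.1 to 389.1, 596.2 and 491.8 (1.95 ± 0.22). Bbc3, which encodes the death-promoting protein PUMA, rose by 1.57 ± 0.25, and Cdkn1a, the cell cycle inhibitor p21, went from 386.8, 228.2 and 378.5 to 931.3, 676.6 and 861.7 (1.32 ± 0.22). Mdm2, the p53 ligase, had 0.11, and Zmat3 and Ei24 were past the adjusted p in the other direction with -0.96 each. Among 14 regulators of the Bcl2 family, Bbc3 was called higher and Bak1, which forms pores in mitochondria, lower, from 4343, 3669 and 4216 to 1781, 1791 and 1728 (-1.20 ± 0.13). Of these 14, 7 had been called lower on induction, beside 6% of all genes tested. Their median at 12 h against uninduced was -1.13. Of 29 integrated stress response genes 5 were called higher, among them Ppp1r15a (1.53 ± 0.24), which restarts translation, and Ddit4, Chac1 and Cebpb, and 1 lower, Pck2 (-1.13 ± 0.15, and -0.98 without Activator 3 h replicate 3). None of 21 heat shock chaperone genes was called, with 4 higher and 8 lower past the adjusted p (18.3% and 15.1% over all genes tested, of any mean), Hspa5 among the latter at -0.92. Of 20 genes of the NRF2 and oxidative stress list, Hmox1 and Osgin1 were called higher and G6pdx, Gstm1 and Gsta4 lower, the last 3 being 1 without Activator 3 h replicate 2, 3 h replicate 3 or 12 h replicate 1. Hmox1, heme oxygenase, went from 1826, 2115 and 1739 to 4967, 6102 and 5985 in the Activator line (1.59 ± 0.17) and had 4972 to 5182 and then 2498 to 2767 in the Control line, and the difference was 2.56 ± 0.24 (adjusted p = 9.17e-08).

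Part of the inflammatory genes rose as well, and several had their highest values in replicate 2. Of 26 genes for NF-kappaB cytokines and their regulators, 5 were called higher, 12 were higher and 1 lower past the adjusted p, and the median was 0.63, against -0.37 in the Control line. In 12 the lines differed past the limits, all higher, beside 1.5% of all genes tested. The difference holds a part from the Control line, where 5 genes of the list were lower past the adjusted p and 0 higher. Over all genes tested, 1.91% were called higher, and 18.3% passed the adjusted p upward and 15.1% downward. Tnfaip3, which ends NF-kappaB signalling, went from 201.7, 377 and 270.05 to 831.2, 1716 and 1201 (2.14 ± 0.29), and Lif, a cytokine, from 133.4, 218.4 and 129.5 to 340.05, 804.2 and 512.1 (1.77 ± 0.25) while its Control libraries held 1146 to 1408 at 3 h and 616.4 to 643.3 at 12 h. Tnfaip3 and Lif had been called lower on induction (-2.20 and -2.42). At 12 h against uninduced they had -0.22 and -0.34, and the list median was -0.09. Of 34 interferon-stimulated genes tested, 4 were called higher (Oasl2, Ifit1, Parp14 and Isg15), 20 passed the adjusted p upward and 1 downward, beside the same shares over all genes tested. The median was 1.71. Oasl2, an antiviral protein gene, had 5.84, 47.2 and 15.5 at 3 h and 28.6, 979.8 and 108.8 at 12 h, so that the rise was seen in each numbered pair but the groups overlapped (3.56 ± 1.01, adjusted p = 0.00904). Ifit1 had 0.834, 42.8 and 21.03 at 3 h, against 19.4, 669.2 and 66.7 at 12 h (3.11 ± 0.89, adjusted p = 0.00913). Without replicate 2 at both times, an alternative chosen after the data were seen, 1 of 35 such genes was called, 5 passed upward and 1 downward, and the median was 0.85. Without Activator 12 h replicate 2 alone 1 was called and without 12 h replicate 1 7 were, and Oasl2 (2.63) and Ifit1 (2.13) missed the test without 12 h replicate 2, as did Ifit1 without 3 h replicate 2 (2.97). In 1 of the 34 genes the difference between the lines was called, upward, beside 1.5% of all genes tested. Apol9a, an interferon-related gene lower on induction, followed the same library, with 17.5, 93.6 and 31.0 at 3 h and 78.6, 702.5 and 182.8 at 12 h.

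**Figure D3:**
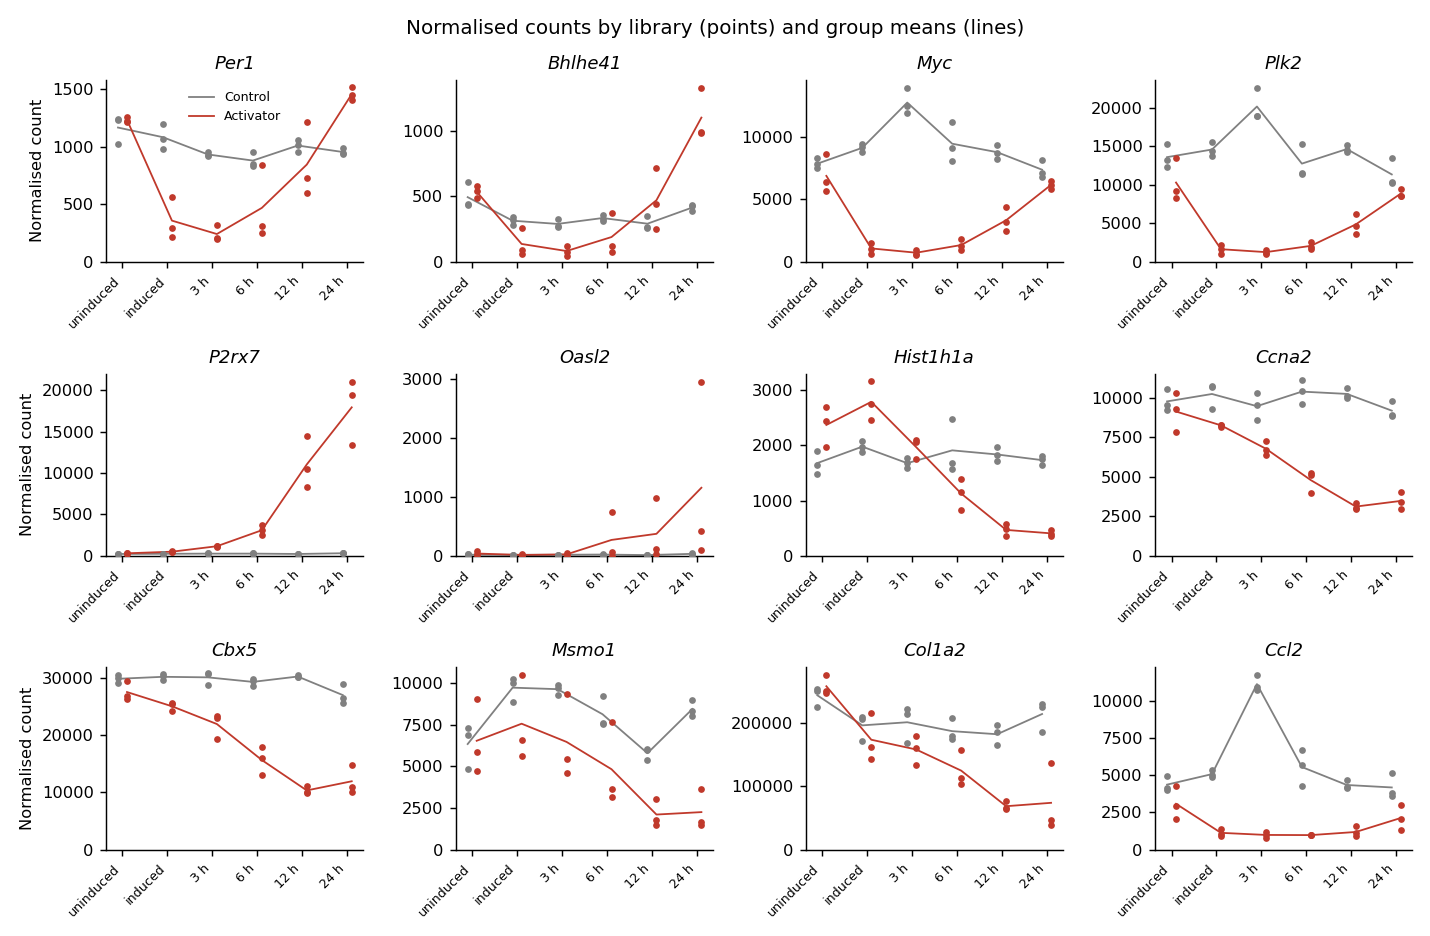
Normalised counts of 12 genes (y axis) in every library (points) and group means (lines) for the Control (grey) and Activator (red) lines, uninduced, induced and at 3, 6, 12 and 24 h (x axis). Per1, Bhlhe41, Myc and Plk2 are low at 3 h and higher at 12 h in the Activator line, Hist1h1a, Ccna2, Cbx5, Msmo1 and Col1a2 fall between those times, Oasl2 is high in 1 replicate, and Ccl2 falls in the Control line.

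Genes of the dividing cell leaned downward, mostly by less than the fold limit. Of 50 mitotic genes 3 were called lower and 0 higher, but 33 passed the adjusted p downward and 0 upward, where 15.1% of all genes tested passed downward and 18.3% upward. All 50 had a mean above 100, whereas these shares cover genes of any mean and so are not like for like. For the 50 the median was -0.50, against 0.18 in the Control line, and 7 were called lower in the difference between the lines, beside 0.811% of all genes tested. Ccna2, cyclin A2 (chr3:36564865-36572150), went from 6696, 6387 and 7267 to 2985, 3001 and 3363 (-1.12 ± 0.10, adjusted p = 4.45e-09), and the Control libraries held 8596 to 10287 at 3 h and 10031 to 10606 at 12 h (0.12). Ccnf, whose promoter is printed above, went from 1768, 1906 and 1705 to 852.7, 867.1 and 863.1 (-1.06 ± 0.07, adjusted p = 8.05e-11), and the difference between the lines was -1.29 ± 0.10. Plk1, a mitotic kinase, had -1.01. Of 52 DNA replication genes 1 was called lower, the ribonucleotide reductase subunit Rrm2, from 6030.4, 4793 and 6284 to 2528, 1628 and 2041 (-1.47 ± 0.14), 29 passed the adjusted p downward and 0 upward, and the median was -0.31. Of 46 DNA break repair genes none was called, with 23 lower, such as Fancd2 (-0.87) and Atm (-0.75), and 4 higher past the adjusted p. Ccnd1, cyclin D1, changed by -1.03 ± 0.16, the 1 called fall among 14 genes of the cyclin D, CDK4/6 and CDK inhibitor list. Ccnf and Ccnd1 lie near the fold limit, and with DESeq2 size factors they had -0.98 and -0.96. Without a single library the values stayed between -1.04 and -0.92 for Ccnf, where Activator 3 h replicate 2 and 12 h replicates 1 and 3 ended the call, and between -1.07 and -0.88 for Ccnd1, where 3 h replicates 1 and 3 and 12 h replicates 2 and 3 ended it. The number of mitotic genes called was 1 without 12 h replicate 3.

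Replication-dependent histone genes, whose transcripts are made in S phase and mostly end without a poly(A) tail, leaned downward as well: 8 of 69 were called lower and 0 higher, beside 1.79% called lower of all genes with a mean above 100, with a median of -0.48, against 0.13 in the Control line. Hist1h1a (chr13:23763666-23764406), a linker histone, went from 2098, 1748 and 2054 to 565.7, 356.8 and 480.2 (-2.08 ± 0.17, adjusted p = 1.12e-09), and Control libraries held 1582 to 1777 and then 1716 to 1968. The 8 were 4 without Activator 3 h replicate 2 and 5 without 12 h replicate 3. Hist1h1b, another linker histone, went from 4659, 4578 and 3849 to 1589.96, 1648 and 1221 (-1.56 ± 0.13, adjusted p = 1.95e-09). Members with near-identical copies, such as those for H3 and H2B, are uncertain, since reads may be split between them.

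Genes for heterochromatin proteins leaned downward as well. Of 30 genes for heterochromatin proteins and H3K9 or H4K20 methylation, 2 were called lower and 0 higher, beside 1.79% and 4.01% of all genes with a mean above 100. Past the adjusted p, 16 were lower and 4 higher, where 15.1% and 18.3% of all genes tested, of any mean, were. The median was -0.34, against 0.02 in the Control line. The 2 called encode HP1 proteins, which bind H3K9me3. Cbx5, HP1α (chr15:103191544-103239816), went from 23065, 19356 and 23435 to 11075, 9872 and 10063 (-1.09 ± 0.11, adjusted p = 1.8e-08), while Control libraries held 28818 to 30825 at 3 h and 30102 to 30588 at 12 h. Cbx3, HP1γ, changed by -1.02 ± 0.13. Lmnb1, lamin B1, had -0.99, Dnmt1, the maintenance DNA methyltransferase, -0.92 and Suv39h1, an H3K9 methyltransferase, -0.60, and Fam208a, a subunit of the HUSH complex, had 0.93 in the other direction. Cbx5 and Cbx3 lie near the fold limit, and their calls ended while the direction held: without Activator 12 h replicate 3, for example, Cbx5 had -0.98 and Cbx3 -0.92, and with scaling to mitochondrial mRNAs -0.98 and -0.93. Neither was called without Activator 3 h replicate 1 (-0.99 and -0.88) or 3 h replicate 3 (-0.98 and -0.91), and Cbx3 was not called without 12 h replicate 2 (-0.88).

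Genes of cholesterol synthesis were lower at 12 h in both lines. Of 24 genes 8 were called lower in the Activator line and 0 higher, beside 1.79% called lower of all genes with a mean above 100. The adjusted p was passed downward by 17, beside 15.1% of all genes tested, and the median was -0.53. The Control median was -0.72, with 7 genes lower past the adjusted p. Msmo1, a sterol oxidase of the pathway, went from 4634, 9335 and 5468 to 1459, 3057 and 1800.2 in the Activator line (-1.62 ± 0.26), where the groups did not overlap, and had 9320.4 to 9927 and then 5372 to 6059 in the Control line. Dhcr7, a reductase of the pathway, went from 608.5, 1847 and 955.1 to 231.8, 577.7 and 278.5 (-1.63 ± 0.34), also without overlap. Both were called in the Activator line, and in neither was the difference between the lines past the test (adjusted p = 0.117 for Msmo1 and 0.142 for Dhcr7). Both lines had received fresh medium when doxycycline was removed, and its part in this was not tested.

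Matrix and cytoskeletal genes gave a mixed picture. Of all genes with a mean above 100, 4.01% were called higher and 1.79% lower, and of all genes tested 18.3% passed the adjusted p upward and 15.1% downward. Of 35 collagen and matrix genes 2 were called lower and 13 passed the adjusted p downward with 0 upward, at a median of -0.42 and a Control median of -0.31. Col1a2, a type I collagen chain, went from 134363, 179491 and 160438 to 65416, 76355 and 63623 (-1.21 ± 0.22), and Timp3, a metalloproteinase inhibitor, from 23782, 16603 and 28595 to 10233, 12217 and 11123 (-1.04 ± 0.34, adjusted p = 0.0196), a call that was lost without Activator 3 h replicate 1 (-0.94) or 3 (-0.77) and without any 1 of the 12 h libraries (-0.91, -1.05 and -0.97), and also with DESeq2 (-0.97), DESeq2 size factors (-0.97), library size alone (-0.95), scaling to mitochondrial mRNAs (-0.91) and the fit of the Activator libraries alone (-1.09). Of 28 contractile and SRF or YAP target genes Actg1, a cytoplasmic actin, was called lower (-1.19 ± 0.16) and Ajuba, a junction protein, higher (1.05 ± 0.30), which was 0.95 without Activator 3 h replicate 3 and 0.81 without 12 h replicate 2, both below the limit. Of 22 TGF-beta and BMP response genes 3 were called higher, namely Smad7 (1.70 ± 0.25), an inhibitor of the pathway, Tgif1 (1.56 ± 0.30) and Gadd45b (1.01), a count that was 6 without Activator 3 h replicate 2. The list median had been -1.26 on induction, with 13 genes called lower. Over all genes tested 6% were called lower on induction, and 12.6% of those with a mean above 100. Vegfa, an angiogenic factor, was the 1 gene called among 27 of glycolysis and hypoxia (1.17 ± 0.25). Of the marker lists, Col1a2 and S100a4 were called lower among 13 fibroblast genes, and Tubb3 (-1.25 ± 0.26, and -0.89 without 12 h replicate 1) lower and Mbp (1.11 ± 0.27, and 0.85 without 12 h replicate 2) higher among 17 markers of other cell types.

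Several lists stayed near the background. Of 83 ribosomal protein genes 0 were called, 1 was higher and 2 were lower past the adjusted p, and the median was -0.01. The 13 mitochondrial mRNAs had 0 past the adjusted p in either direction and a median of -0.03. Of 101 nuclear-encoded respiratory chain genes and 59 ribosome biogenesis genes none was called, with medians of -0.07 and -0.16. Germline genes that DNA methylation keeps silent had risen on induction, with a median of 3.44 over 13, and had 0 called and a median of 0.19 between 3 h and 12 h. Of 17 two-cell-stage genes 0 were called. Of 22 nuclear long noncoding RNAs and small nucleolar RNA hosts 3 were called higher, of which Snhg15 went from 391.8, 308.4 and 321.1 to 1051, 1047 and 973.4 (1.59 ± 0.15, adjusted p = 7.54e-09) and Snhg17 had 1.17. The third, Lars2, is annotated as a protein-coding gene. It rests on Activator 12 h replicate 3, with 1479.7 and 919 in the others and 9924 in that library, and had 0.22 without it.

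**Figure D4:**
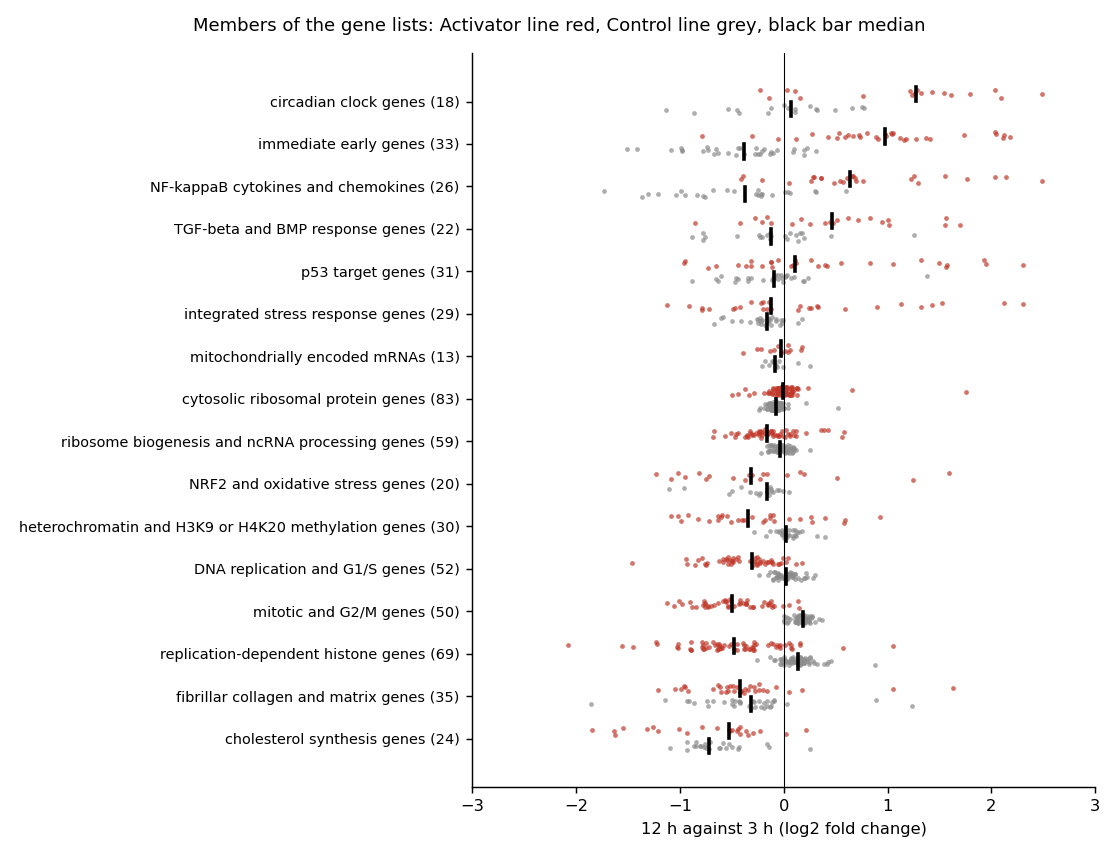
Log2 fold change from 3 h to 12 h (x axis) of the members of 16 gene lists (rows, number of genes tested in brackets) in the Activator line (red) and the Control line (grey), with list medians as black bars. Clock and immediate early genes lie mostly to the right in the Activator line, ribosomal protein and mitochondrial mRNAs lie at 0, and cholesterol synthesis genes lie to the left in both lines.

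The 10 genes called in the Control line were Rerg, Gch1, Ccl2, Ccl7, Errfi1, Tnfaip2, Slit3, Ier3, Cx3cl1 and Sdc4, given after their values were seen, several of them cytokines or early response genes. Ccl2, a chemokine for monocytes, went from 10726, 10972 and 11723 at 3 h to 4684, 4187 and 4163 at 12 h in the Control line (-1.36), a separation of all libraries. In the Activator line it had 1150, 783.4 and 1010.5 at 3 h, followed by 901.7, 1553 and 1091, groups that overlapped (0.29 ± 0.26, adjusted p = 0.41). The difference between the lines was 1.65 (adjusted p = 0.00336). Ier3 was called in both lines in opposite directions, at -1.08 in the Control line and 1.37 in the Activator line. Ptger4, a prostaglandin receptor with 1 of the 5 smallest p-values for the difference, went from 544.4, 621.2 and 477 to 944.6, 935.5 and 900.8 in the Activator line, and at 1322 to 1423 and then 725.8 to 800.9 in the Control line, a difference of 1.63 ± 0.15 (adjusted p = 3.86e-08).

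Noncoding transcripts were frequent among the genes called higher. Protein-coding genes made up 65.2% of them and 88.5% of those called lower, against 83.3% of all genes with a mean above 100. Of 497 unconfirmed transcript models (TEC) 58 were called higher, of 273 lincRNAs 35, of 544 antisense transcripts 32 and of 55 sense intronic transcripts 10, beside 4.01% of all genes with a mean above 100. The share was not larger in every class, since of 340 processed pseudogenes 9 were called higher. The overlap of noncoding transcripts with repeat families and with host genes was not resolved by the counting. In Activator 12 h replicate 3, ribosomal RNA-like features were high: Gm23935, annotated as a miRNA and chosen after its values were seen, had 538.2, 2732 and 1153980 at 12 h, and mt-Rnr2, the mitochondrial large ribosomal RNA, 18200, 7062 and 259409, against 7070 to 16077 at 3 h. Without that library neither was called (1.84 and 0.14).

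Repeat families leaned upward by small amounts. Of 1492 tested 256 (17.2%) were called higher and 0 lower, the median log2 fold change was 0.38, against 0.11 in the Control line. At an unadjusted p under 0.05, 988 repeat families passed, of which 4 were lower, and DESeq2 also called 0 lower. The calls were spread over classes with like medians: 112 of 665 LTR families (median 0.37), 38 of 218 DNA transposons (0.37), 13 of 159 LINE (0.35), 7 of 38 SINE (0.41) and 56 of 282 simple repeats (0.42). Families named for tRNA had 17 of 56 called and a median of 0.65, and B2 elements, short repeats made by RNA polymerase III, 3 of 5 and a median of 0.88. The difference between the lines was called for 60 families upward and 1 downward. The number called ran from 146 without Activator 3 h replicate 3 to 749 without 3 h replicate 2, and was 369 without 12 h replicate 3.

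The targeted repeat itself was high at both times. GSAT_MM had 175436, 462661 and 886904 normalised counts at 3 h and 337866, 791300 and 1996187 at 12 h, against 956.6 to 1128 and 1156 to 1584 in the Control line. The replicates of 1 time differed by more than the times did, with a 5.06-fold range at 3 h, and the groups overlapped. Within a replicate number the 12 h value was 1.93, 1.71 and 2.25 times the 3 h value. The log2 fold change of 0.99 ± 0.61 did not pass the test (adjusted p = 0.223), and the two-sided exact permutation test, which does not use the replicate numbers and with 3 against 3 cannot go below 0.1, gave p = 0.5. In a fit of only the 6 libraries compared the log2 fold change was 0.93 with an adjusted p of 5.09e-08 in edgeR. That fit takes the spread and the replicate effect from these 6 Activator libraries, whereas the main fit takes them from all 36 libraries of both lines. The part of each in the gap between the p-values was not tested. SYNREP_MM had 47973, 32114 and 47429 at 3 h and 89512, 40994 and 59543 at 12 h (0.53 ± 0.31, adjusted p = 0.19, exact permutation p = 0.3), or 1.87, 1.28 and 1.26 times within a replicate number. L1Md_A, a young LINE-1 family, had 64824, 61247 and 50941 and then 75525, 73113 and 84899.7, groups that did not overlap (0.39 ± 0.14, adjusted p = 0.0301), below the fold limit, which it passed without Activator 3 h replicate 1 (0.55) or 2 (0.52).

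**Figure D5:**
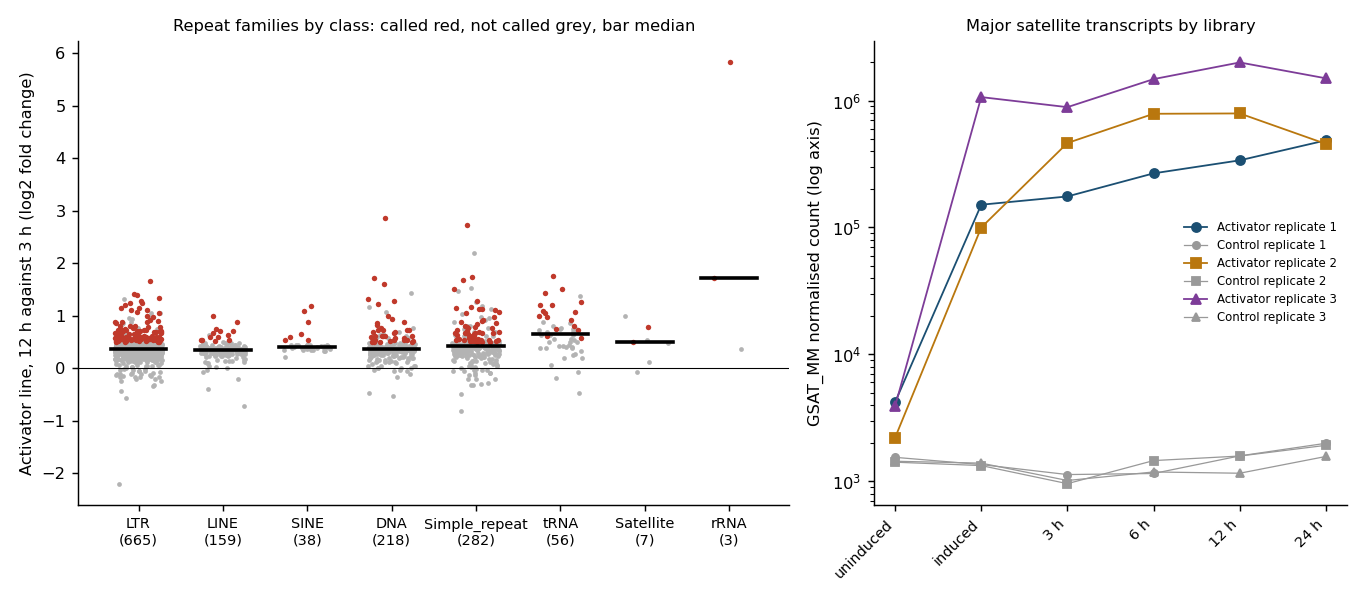
Left, log2 fold change from 3 h to 12 h in the Activator line (y axis) of repeat families by class (x axis, number tested in brackets), with called families red and medians as bars, most of them above 0. Right, GSAT_MM normalised counts on a log axis by library and time, with the 3 Activator replicates far above the Control libraries at every time after induction and about parallel between 3 h and 12 h.

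Of the named repeat families with the largest rises, (CAGGG)n, a simple repeat, rose in every library, from 4421.5, 4603 and 5357 to 15931, 14166 and 17762 (1.73 ± 0.20, adjusted p = 3.65e-07), after a rise of 2.79 on induction, and was at 312.5 to 399.6 in the Control libraries of these times. The other 2 were ribosomal RNA entries. LSU-rRNA_Hsa had 39112, 19509 and 3785321 at 12 h, against 14229 to 20120 at 3 h, and SSU-rRNA_Hsa 8462, 6009 and 49797, against 3847 to 7272. Both rest on replicate 3 at 12 h, and without it LSU-rRNA_Hsa had 0.86 and SSU-rRNA_Hsa 0.48, neither called.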

How the data were processed

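Total RNA depleted of ribosomal RNA was sequenced paired-end in 36 libraries. The deposited counts are whole numbers per gene and per repeat family, which the authors made from stranded libraries with cutadapt, STAR on GRCm38 with the settings that TEtranscripts recommends, and TEtranscripts, without normalisation. The strand and multiple-match modes of the counting and the annotation release are not given in the sources used here. One row without a name was left out (at most 0.00452% of a library).

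Library sizes and TMM factors were taken from the 54842 genes alone, and edgeR 4.0.16 (R 4.3.3, limma 3.58.1) fitted its quasi-likelihood model to all libraries as 12 groups with the replicate number as a block, after filterByExpr kept 30113 rows, with Benjamini-Hochberg adjustment over these. The study put the replicate in its own design. Deviations from the group means correlated between same-numbered libraries at 0.707, 0.804 and 0.474 in the Activator line and 0.627, 0.237 and 0.672 in the Control line, all over 0.1, so the block was kept. These correlations are within a line, whereas the block fits 1 replicate effect shared by both lines. Pairing that differs between the lines is not modelled. Gene positions are from the GENCODE annotation of GRCm38. The scripts were tested on simulated data.

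Genes named are the 10 largest rises and 10 largest falls with a symbol other than a gene model name and with libraries that did not overlap, up to 2 called members a direction of each list, the 3 largest turns a direction, the 5 smallest p-values for the difference between the lines, the satellite repeats, L1Md_A and the repeat families with the largest changes. Gm23935, mt-Rnr2, Ccl2 and the other genes called in the Control line, Per1, Per2, Fosl1, Apol9a and the further list members given with a value alone were chosen after their values were seen. A gene that this rule also picked is not reported here. Members and lists were chosen with earlier results of these data known. Promoters were in the RefSeq table for 67.9% of the genes with a mean above 100, so no motif was compared between called sets. Alternatives changed the tool (DESeq2 1.42.0), scaling, filter, limits, libraries fitted and block, and left out each library.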

Additional observations from a re-analysis of the deposited data

Results flagged for a closer look

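For 45 features that the naming rule picked, the change from 3 h to 12 h differed between the Activator and the Control line. The measure was edgeR's test of the difference itself, with an adjusted p under 0.05 and beyond the limits used for calls. The rule picked these features on their change in the same Activator libraries or on the p-value of this difference. The choice therefore favoured passing, and the 45 are a description and not a separate test. Over all genes tested, the difference was called higher for 1.5% and lower for 0.811%. Values are the log2 fold change in the Activator line minus that in the Control line, and their sources were not tested. Among the largest rises they were 3.81 for Snora17, 3.51 for P2rx7, 3.27 for AC154187.1, 2.57 for Plcxd2, 2.94 for Gm15638, 2.64 for Bcl6, 2.58 for Sphk1, 2.42 for Arrdc3 and 2.38 for Srrm4. Among the largest falls they were -1.82 for Hmgb3, -1.82 for S100a4, -1.07 for Mt2, -1.48 for Ttyh3 and -1.73 for Klhl32.

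Clock and early response genes had 2.49 (Bhlhe41), 1.78 (Nr1d1), 2.72 (Myc), 2.37 (Atf3), 2.39 (Plk2) and 1.63 (Ptger4). Stress, death and inflammatory genes had 2.14 (Gadd45a), 1.89 (Bbc3), 1.79 (Cdkn1a), -1.04 (Bak1), 1.67 (Ppp1r15a), 2.56 (Hmox1), 2.35 (Osgin1), -1.17 (G6pdx), 2.68 (Tnfaip3) and 2.76 (Lif). TGF-beta and hypoxia genes had 1.82 (Smad7), 1.79 (Tgif1) and 1.42 (Vegfa), and the noncoding Snhg15 had 1.59.

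Genes of the dividing cell and of chromatin had -1.24 (Ccna2), -1.29 (Ccnf), -1.36 (Rrm2), -1.12 (Ccnd1), -2.21 (Hist1h1a), -1.64 (Hist1h1b), -1.09 (Cbx5) and -1.05 (Cbx3). The collagen gene Col1a2 had -1.07. Among repeats, (CAGGG)n had 1.67, and LSU-rRNA_Hsa had 6.08, a value that rests on Activator 12 h replicate 3. Genes chosen after their values were seen that also passed had 1.65 (Ccl2), 1.68 (Per1), 1.93 (Per2), 2.79 (Fosl1), 6.81 (Gm23935) and 3.74 (mt-Rnr2).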

How the results depend on the processing

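In place of 790 genes called in the Activator line, a log2 limit of 0.5 gave 3442, the adjusted p alone 9562 and no filter on low counts 3532, and leaving out 1 library gave 668 to 1093. In place of 256 repeat families, a limit of 1 gave 49, the adjusted p alone 764, DESeq2 size factors 466, library size without TMM 479 and DESeq2 462. Leaving out 1 library gave 146 to 749, and leaving out replicate 2 of both Activator groups, chosen after the data were seen, 578. For the difference between the lines, 661 became 2325 with a limit of 0.5, 3428 by the adjusted p alone and 317 with scaling to mitochondrial mRNAs, and 523 to 852 without 1 library. In the Control line 10 became 45, 65 and 0 in turn under these 3 settings (for the last, edgeR gave 1167 genes at an unadjusted p under 0.05), 3 by library size without TMM, 20 with DESeq2, 23 with only the libraries compared, and 3 to 10 without 1 library. The 274 genes that turned upward became 841 with a limit of 0.5, 417 with mitochondrial scaling and, chosen after the data were seen, 173 to 464 without 1 library.

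GSAT_MM passed the test with only the libraries compared (0.93) and ranged from 0.61 to 1.41 without 1 library. Without the replicate block, 736 genes and 221 repeat families were called in the Activator line, 7 genes in the Control line and 546 for the difference, and GSAT_MM was at 1.04 (edgeR adjusted p = 0.294). Of the single genes, Ccl2 turned to -0.065 without replicate 2 of both Activator groups, and the replicate block changed the call of 1, Ikzf1, which was lost without it (-1.33). Ccnf, Ccnd1, Cbx3, Cbx5, Timp3, Gstm1 and Ikzf1 lost their calls under 1 or more of the other scalings or DESeq2, with directions kept, and with only the libraries compared Lars2 and the ribosomal RNA features lost theirs. The cause of these changes was not tested. The fit of only the Activator libraries gives no value for comparisons with the Control line.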
